A study of Monodelphis domestica and Mus musculus with 2 samples.

Results

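Fezf2, Bcl11b, Tle4, Foxp2, Tbr1 and Sox5, a set of 6 transcription factors and cofactors used to name deep-layer cortical neurons, were followed through the primary visual cortex (V1) of a gray short-tailed opossum and a mouse. The genes were found by symbol. All 6 were present among the 30613 opossum features, and 5 of 6 among the 61317 mouse features. No mouse feature carried the symbol Bcl11b, but ENSMUSG00000048251, listed under the older symbol Rit1, is named Bcl11b in the GENCODE annotation, and its counts were used for Bcl11b here. A different mouse feature with the symbol Rit1 was not used.

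The measurements were Stereo-seq counts, in which RNA of a tissue section binds to spots with known positions on a chip, and its unique molecular identifiers (UMIs) are then assigned to segmented cells. The opossum (Monodelphis domestica) was a 6-month-old male, and the mouse was a male wild-type C57BL/6J animal at postnatal day 40, with 1 animal and 1 section of 10 µm for each species and no treatment in either. Several coronal slices of the brain were embedded in 1 block before it was cut, so the V1 regions come from more than 1 slice of the same animal, and some are adjacent columns of a slice. The analysis used 4806 opossum cells in 3 V1 regions (6933475 UMIs, median 1326 per cell) and 9127 mouse cells in 4 V1 regions (12522687 UMIs, median 1305 per cell) that passed the filter of the authors. Regions of 1 animal are not replicates of a species, so no test was possible within or between species, and the values of the 2 animals are given side by side. Intervals are exact 95% intervals that cover counting error only. They treat UMIs as independent, so they are too narrow where a few cells hold many UMIs of a gene. Species, age at sampling and RNA integrity (7.1 for the opossum, above 9 for the mouse) cannot be told apart.

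In the developing cortex these genes form a mutually regulating network that sorts newborn neurons by their targets. Fezf2 and its downstream partner Bcl11b (also called Ctip2) promote subcerebral output neurons of layer 5, Tbr1 and Sox5 promote or time the corticothalamic identity of layer 6, and Tle4 and Foxp2 are widely used as markers of corticothalamic cells. In the adult, layer 5 pyramidal tract cells (L5PT) send axons to brainstem and spinal cord, near-projecting cells (L5NP) stay local, layer 6 corticothalamic cells (L6CT) project to the thalamus, and intratelencephalic (IT) cells project within the cortex. The authors named opossum IT cells IT_A, IT_B, IT_C and IT_D, and mouse IT cells L2/3, L4, L5IT and L6IT. IT_D, which they matched to mouse L6IT, is not among the 14 opossum labels with at least 25 cells measured here.

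In mouse GRCm39 coordinates, Fezf2 lies on chromosome 14 from 10121574 to 10127680 on the plus strand and Bcl11b on chromosome 12 from 107876656 to 107970417 on the minus strand. Tle4 lies on chromosome 19 from 14425417 to 14575572 on the minus strand and Foxp2 on chromosome 6 from 14901287 to 15441976 on the plus strand. Tbr1 lies on chromosome 2 from 61633274 to 61644458 on the plus strand, and Sox5 on chromosome 6 from 143774151 to 144727703 on the minus strand. All 6 are annotated as protein coding. The Sox5 locus contains 2 genes of the same strand with 1 UMI in V1 and 9 of the other strand with 48 UMIs, against 903 UMIs for Sox5 itself. Coordinates of the opossum genes, which the files list as FEZF2 (ENSMODG00000002738), BCL11B (ENSMODG00000012964), TLE4 (ENSMODG00000009542), FOXP2 (ENSMODG00000015863), TBR1 (ENSMODG00000005353) and SOX5 (ENSMODG00000017704), are not given because the reference used here is of another build.

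Counts of the 6 genes were sparse. In opossum V1 they ranged from 412 UMIs for Fezf2 to 1074 for Sox5, and in mouse V1 from 581 for Foxp2 to 1749 for Tbr1. Levels are therefore given as UMIs of a gene per 10000 UMIs of all genes, summed over the cells of a group, and are compared only within a gene. Subclass labels were transferred by the authors from expression, so a level by label is a description of the label and not an independent measurement of it. Markers of the labels were mostly highest under their own label. However, Rprm was at 0.411 per 10000 in opossum L6CT against 0.807 in the other opossum cells. Tshz2, a marker of L5NP, had 0 UMIs in the 39 opossum L5NP cells. Foxp2 and Bcl11b were themselves among the markers, of L6CT and L5PT. Parm1 and Fam84b, the other L5PT markers, and Nxph1, the other L5NP marker, were not found in the opossum. The opossum L5PT label thus had no marker from outside the 6 genes, and the opossum L5NP label had no marker above the other cells. The mouse glutamatergic class label was not set apart by its transporter gene Slc17a7, at 10.5 per 10000 against 10.4 in all other mouse cells, or by Neurod6, at 1.24 against 1.35. Of 565 opossum cells with the oligodendrocyte label (OD), 331 carried a glutamatergic class label, so this group is mixed.

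Taken by depth, without use of subclass labels except to turn the axis, all 6 genes were higher on the white matter side of V1 in both species. Relative depth ran from 0 at the pial side to 1 at the white matter side. With depth split into 3 equal bands, the level in the bottom band over that in the top band was at least 1.5-fold for 6 of 6 genes in the opossum, where 7.76% of 7586 genes with at least 100 UMIs were this much higher and 7.57% this much lower, and for 6 of 6 in the mouse, where 4.43% of 10105 genes were higher and 5.42% lower. All 6 genes passed the minimum of 100 UMIs in both species. The widest difference in the opossum was that of Fezf2, at 1.27 per 10000 in the bottom band and 0.124 in the top, a ratio of 10.2 (6.87 to 15.9). Its 3 regions gave 8.67, 10.9 and 14.0. The widest in the mouse was that of Foxp2, with a ratio of 9.48 (6.87 to 13.4) and region values of 8.68, 10.8, 9.49 and 10.1. Opossum Foxp2 had a ratio of 5.02 (4.02 to 6.33), and mouse Fezf2 2.46 (1.91 to 3.19). Tbr1 had the smallest ratio in both animals, 2.00 (1.71 to 2.35) in the opossum and 1.63 (1.45 to 1.83) in the mouse. The other ratios were 6.50 for Bcl11b, 2.15 for Tle4 and 2.96 for Sox5 of the opossum, against 2.54, 2.93 and 2.13 for the mouse genes.

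The depth profiles in 10 equal bins, numbered from the pial side, separated the genes further. Opossum Fezf2 stayed at or below 0.204 in bins 1 to 5 and reached 1.52 (1.26 to 1.81) in bin 9 and 1.47 in bin 10. Mouse Fezf2 instead had a band in mid-depth, at 1.22 (1.04 to 1.43) in bin 6, with 0.430 in bin 9 and 0.674 in bin 10. The mouse peak lay in bin 6 in 3 of 4 regions and in bin 7 in the other, whereas the opossum peak lay in bin 9 or 10 in all 3 regions. Foxp2 was concentrated at the base in both, at 0.570 in bin 8, 1.92 in bin 9 and 4.35 in bin 10 of the opossum, and at 0.475, 1.18 and 1.43 in the same mouse bins. Bcl11b stepped up around mid-depth, from 0.430 in bin 6 to 1.22 in bin 7 of the opossum, and from 0.614 in bin 4 to 1.02 in bin 5 of the mouse. Tbr1 had a shallower maximum besides the deep one. In the opossum it stood at 1.31 in bin 3, 0.717 in bin 6 and 2.56 in bin 10, and mouse Tbr1 stood at 1.30, 0.924 and 2.25 in the same bins. Opossum Tle4 also had a mid-depth maximum of 1.41 in bin 5 before 2.55 in bin 10, while mouse Tle4 was at 0.824 and 1.82 in these bins.

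**Figure D1:**
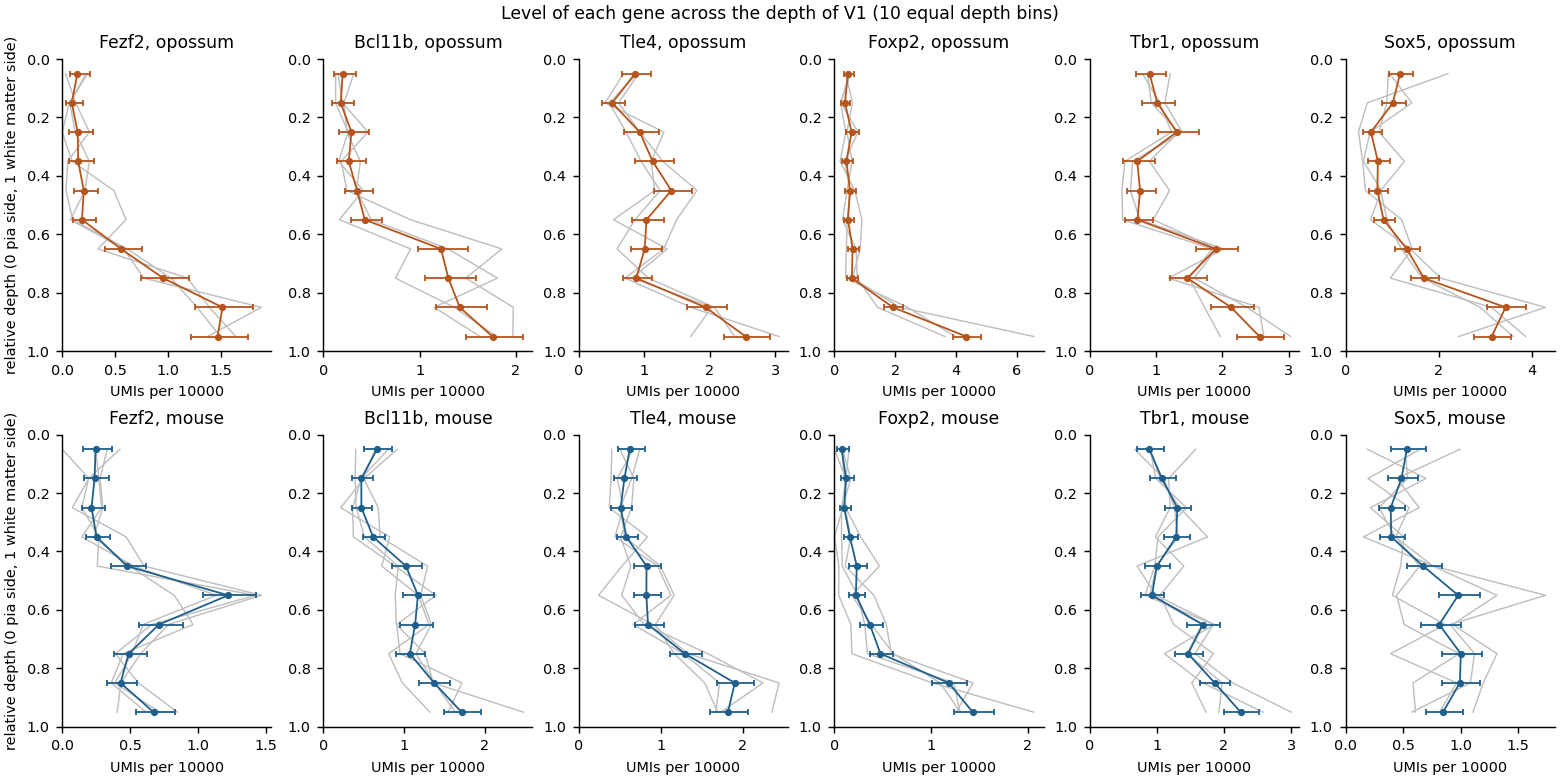
Level of each gene (UMIs per 10000, x axis) in 10 equal bins of relative depth (y axis, 0 at the pial side, 1 at the white matter side) for opossum (top row) and mouse (bottom row). Colored points with bars are the pooled level with its exact 95% Poisson interval and gray lines are the V1 regions; mouse Fezf2 has its maximum of 1.22 in bin 6, while opossum Fezf2 has 1.52 in bin 9.

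The mean relative depth of a gene's UMIs, with each cell scaled to the same total, was 0.728 for Fezf2, 0.708 for Foxp2, 0.685 for Bcl11b, 0.618 for Sox5, 0.605 for Tbr1 and 0.593 for Tle4 in the opossum, where the mean over all cells was 0.493. In the mouse it was 0.745 for Foxp2, 0.625 for Tle4, 0.591 for both Fezf2 and Bcl11b, 0.561 for Sox5 and 0.560 for Tbr1, against 0.487 over all cells. The SD over regions was 0.0186 to 0.0441 in the opossum and 0.00441 to 0.0565 in the mouse, so neighbors in either order mostly differed by less than the spread over regions. Fezf2 and Bcl11b had the widest gaps between the animals, with all opossum regions above all mouse regions (0.683 to 0.771 against 0.564 to 0.606 for Fezf2, and 0.644 to 0.733 against 0.588 to 0.598 for Bcl11b). The regions of Tbr1 did not overlap either, at 0.581 to 0.630 against 0.522 to 0.576. These 3 of the 6 genes stand beside 7.7% of 6013 genes, matched by symbol and with at least 100 UMIs in V1 of each animal, whose opossum regions all lay above the mouse regions, and 0 of the 6 beside 3.97% for the opposite order.

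By label, the level in L5PT, L5NP and L6CT together was set against that in the upper IT cells, which were IT_A and IT_B in the opossum (722 against 1722 cells) and L2/3 and L4 in the mouse (1564 against 3407 cells). At least 1.5-fold was reached by 6 of 6 genes in the opossum, beside 7.2% of 6851 genes, and by 5 of 6 in the mouse, beside 3.55% of 9410 genes. The exception was mouse Tbr1, at 1.69 per 10000 in deep and 1.23 in upper cells, a ratio of 1.37 (1.20 to 1.56) with regions of 1.65, 1.08, 1.55 and 1.07. Foxp2 had the largest ratio in both animals, 9.68 (7.78 to 12.1) in the opossum and 17.1 (12.3 to 24.6) in the mouse. Its regions spread from 6.16 to 22.3 and from 11.6 to 28.3, so these ratios are known only loosely. Opossum Fezf2 had 7.15 (5.12 to 10.2) and Bcl11b 8.24 (6.29 to 10.9), and the same genes in the mouse had 2.49 (2.00 to 3.12) and 2.13 (1.82 to 2.49). For neither gene did the 3 opossum regions overlap with the 4 mouse regions. They were at 6.08 to 8.86 against 1.59 to 4.84 for Fezf2 and 7.15 to 10.2 against 1.74 to 2.27 for Bcl11b. The upper groups differ in make-up, with 1596 IT_A and 126 IT_B cells against 1438 L2/3 and 1969 L4 cells. Fezf2 was at 0.189 in IT_A and 0.0472 in IT_B, and at 0.168 in L2/3 and 0.427 in L4. Bcl11b was at 0.266 and 0.236, and at 0.694 and 0.643, in the same labels. The part of this make-up in the gap between the animals was not tested. With Tbr1 and Sox5, 4 of the 6 genes had all opossum regions above the mouse regions, beside 8.21% of 4677 matched genes, and Tle4 had all mouse regions above, beside 7.91%. Tle4 had 2.56 (2.16 to 3.05) and 3.31 (2.83 to 3.88), and Sox5 4.43 (3.76 to 5.22) and 2.80 (2.34 to 3.36), in opossum and mouse respectively. With labels of the first classification round only, opossum Fezf2 had 10.7, opossum Bcl11b 19.1, opossum Sox5 6.78, mouse Bcl11b 3.33, mouse Tle4 5.27 and mouse Foxp2 32.5.

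**Figure D2:**
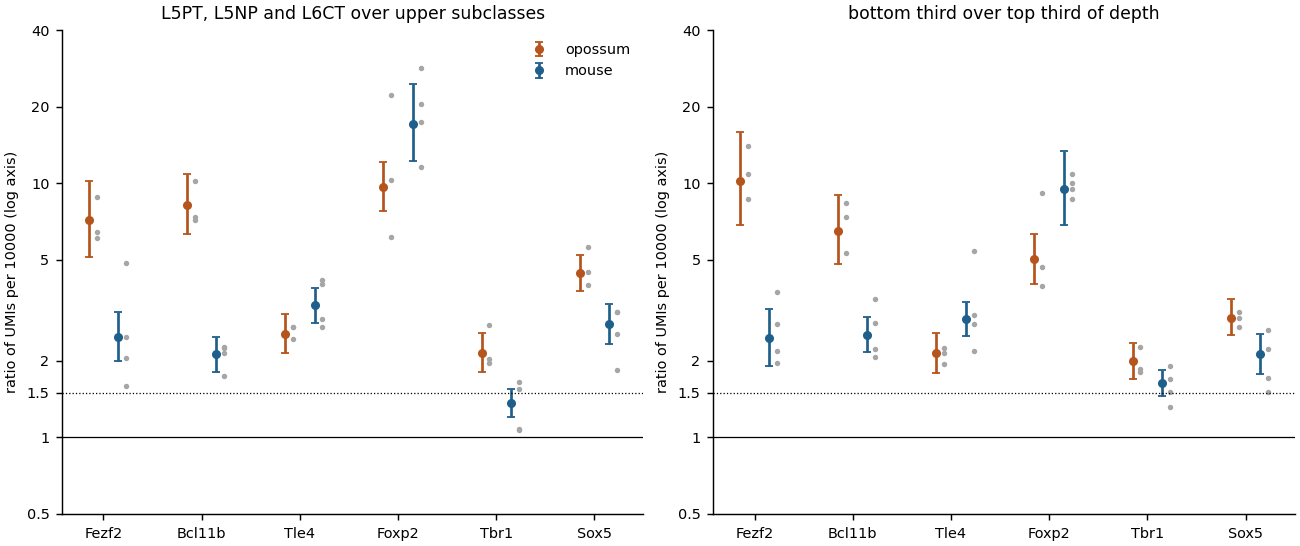
Ratio of the level (UMIs per 10000, log axis) in L5PT, L5NP and L6CT over that in upper IT cells (left) and in the bottom over the top of 3 equal depth bands (right). Colored points with bars are the pooled ratio with its exact 95% interval, gray points are V1 regions, the solid line marks 1 and the dotted line 1.5; only mouse Tbr1 in the left panel, at 1.37, has its pooled ratio below the dotted line.

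Fezf2, the zinc finger factor at the head of the subcerebral program, had its levels in L6CT and L5PT in opposite order in the 2 animals. The ratio of these 2 labels was added after seeing the data. How many of all genes have opposite orders in the 2 animals was not computed. In the opossum its level in L6CT was 1.42, 1.45 and 1.39 per 10000 in the 3 regions, and in L5PT 0.925, 0.397 and 0.369. L6CT lay above L5PT in each opossum region, with a pooled ratio of 2.24 (1.31 to 4.10) that rests on 142 and 15 UMIs. It was 3.64 without region 1, which held most of the L5PT UMIs, and 1.73 without region 2. In the mouse the level in L6CT was 0.623, 0.569, 0.574 and 0.921 per 10000, and in L5PT 1.44, 0.906, 1.53 and 1.32. L6CT lay below L5PT in each mouse region, with a ratio of 0.515 (0.380 to 0.703). Mouse L6CT, at 0.670, did not differ from mouse OD, at 0.675, by more than counting error. Opossum L6CT exceeded opossum OD, at 0.894 over all depths, by 1.59 (1.17 to 2.19), but with both labels taken from the bottom band only, the levels were 1.56 and 1.18 and the ratio 1.32 (0.948 to 1.87), an interval that holds 1. Over all depths, opossum L5PT did not exceed OD, at 0.712 (0.376 to 1.27) of the OD level. Among IT cells, opossum IT_C had 0.998 per 10000, 5.28 (3.36 to 8.27) times the level in IT_A, and mouse L5IT had 0.610, 3.63 (1.74 to 7.14) times that in L2/3. Over all depths IT_C was at 1.12 (0.732 to 1.69) times OD, an interval that holds 1. Opossum OD was at 0.459 in the middle and 1.18 in the bottom band, and the median relative depth of IT_C was 0.657. Mouse L5IT stood beside mouse OD at 0.675 over all depths and 0.557 in the middle band. In the mouse the highest level, 1.91 (0.767 to 3.93), belonged to the 26 cells labeled L6b and did not differ from L5PT beyond counting error.

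Bcl11b, a zinc finger factor that acts downstream of Fezf2 in subcerebral neurons and is also made by many interneurons, marked all 3 deep labels in the opossum. Its regions gave 4.07, 2.09 and 3.69 per 10000 in L5PT, and 1.65, 1.69 and 2.62 in L6CT. L5PT had 3.18 (2.50 to 3.99), L5NP 2.49 (1.45 to 3.98) and L6CT 1.91 (1.65 to 2.21), and L6CT exceeded the next label, Sst, at 0.894, by 2.14 (1.36 to 3.54). Opossum L6CT was at 0.602 (0.459 to 0.797) of L5PT, below it in 3 of 3 regions and at 0.863 without region 1. In the mouse the feature was spread more evenly, from 2.16 in the 35 Lamp5 cells through 1.51 in L6CT and 1.40 in Pvalb to 1.12 in L5PT and 0.643 in L4. Mouse L5PT ranked 7th of 17 labels, at 0.912 (0.647 to 1.28) of the OD level over all depths. Of the 588 mouse OD cells, 414 lay in the bottom band, where OD was at 1.48, whereas L5PT had its median depth in the middle band. Middle-band OD was at 0.557 (0.267 to 1.02), from 10 UMIs, and the ratio of L5PT to it was not computed. The mouse ratio of L6CT over L5PT was 1.35 (1.01 to 1.82), with 2 regions above 1 and 2 below, so the regions did not share a direction.

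Tle4, a Groucho-type corepressor that is recruited by other factors, had its highest level in L6CT in both animals and a low level in L5PT. L5NP came next in the opossum, at 2.78 against 2.82 in L6CT, a ratio of L6CT over L5NP of 1.01 (0.637 to 1.71) whose interval holds 1. In the mouse OD, at 1.45, and L5NP, at 1.37, did not differ beyond counting error. In opossum L6CT the regions gave 3.27, 2.82 and 2.12 per 10000, and in L5PT 0.463, 0.497 and 0. Opossum L5PT, at 0.424 (0.203 to 0.780), was the lowest of all 14 labels, and L6CT stood 6.64 (3.56 to 14.0) times above it. In mouse L6CT the regions gave 1.90, 2.79, 2.58 and 1.80, and in L5PT 0.684, 0.494, 0.595 and 0.702. Mouse L6CT stood 3.49 (2.42 to 5.20) times above L5PT and 1.5 (1.22 to 1.85) times above OD, the next label. The L6CT regions of Tle4 all lay above the L5PT regions in both animals. This held for 4 of the 6 genes in the opossum (Fezf2, Tle4, Foxp2 and Tbr1), beside 12.5% of 2990 genes with at least 100 UMIs in both labels together, and for 3 of 6 in the mouse (Tle4, Foxp2 and Tbr1), beside 5.69% of 5435 genes. The opposite order held for 0 of the 6 genes in both, beside 7.32% and 3.18%. Outside the deep labels, opossum Tle4 was also at 2.03 (0.972 to 3.73) in the 38 Vip cells, 1.5 in astrocytes and 1.41 in IT_B, and mouse Tle4 at 1.28 in Sst cells and 1.05 in astrocytes but 0.555 in L4.

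Foxp2, a forkhead factor of corticothalamic cells, was the most selective of the 6. Opossum L6CT had 5.04, 3.68 and 5.58 per 10000 in its regions, and the next label, OD, had 0.738, 1.12 and 1.08. The pooled level of 4.72 (4.30 to 5.17) was 4.88 (3.77 to 6.42) times that of OD. Mouse L6CT had 1.78, 1.96, 2.04 and 1.89, and 3.32 (1.99 to 5.99) times the level of the next label, oligodendrocyte precursors (OPC), at 0.568. Opossum L5PT had 0.678 and mouse L5PT 0.10, the latter from 5 UMIs. A Foxp2 UMI was found in 33.5% (29.6 to 37.5) of opossum L6CT cells and 18.7% (16.5 to 21.0) of mouse L6CT cells. Among astrocytes, which should lack the gene, the share was 6.26% (4.29 to 8.77) and 2.24% (1.08 to 4.08). Median UMIs were 1750.5 in L6CT and 1120 in astrocytes of the opossum, and 1567 and 1157 in the mouse. After thinning each cell to 300 UMIs the shares were 11.1% in L6CT and 1.81% in opossum astrocytes, against 5.06% and 0.581% for the mouse. The UMIs were concentrated in few cells, since 26 opossum cells with 5 or more, of which 24 were L6CT, held 28.1% of all Foxp2 UMIs of V1, and the highest cell had 22. In the mouse 8 such cells, 7 of them L6CT, held 8.78%.

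Tbr1, a T-box factor of layer 6 and of early-born glutamatergic neurons, was the least selective. Opossum L6CT had 2.44, 2.05 and 2.39 per 10000 in its regions, and mouse L6CT 2.06, 1.74, 2.27 and 1.60. In the opossum, OPC at 2.33, L6CT at 2.30, endothelial cells at 2.21, OD at 1.93 and IT_C at 1.85 did not differ between neighbors beyond counting error. In the mouse, L6CT at 1.94, OD at 1.80 and L5IT at 1.64 did not either. L5PT lay lower, at 0.933 (0.585 to 1.41) in the opossum and 0.741 (0.522 to 1.02) in the mouse, and L6CT exceeded L5PT by 2.46 (1.59 to 4.00) and 2.62 (1.87 to 3.78), in 3 of 3 and 4 of 4 regions. L6CT over OD was 1.19 (0.954 to 1.48) in the opossum and 1.08 (0.892 to 1.31) in the mouse, and both intervals hold 1.

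Sox5, a SoxD factor that times the production of deep-layer neurons, was highest in L5PT in both animals. Opossum L5PT had 3.70, 5.17 and 3.69 per 10000 and L6CT 3.42, 3.95 and 3.89, a ratio of L6CT over L5PT of 0.860 (0.689 to 1.08) whose interval holds 1. Mouse L5PT had 2.33, 3.13, 1.11 and 1.05 and L6CT 1.48, 0.967, 0.705 and 0.741. Here L6CT was at 0.554 (0.434 to 0.711) of L5PT, below it in 4 of 4 regions, and L5PT exceeded the next label, L6IT at 1.26, by 1.54 (1.13 to 2.09). This order held in 3 of 4 regions, and in region 3 L5PT was at 0.782 of L6IT. Mouse L5IT, at 0.188 (0.0511 to 0.480) and a depth close to that of L5PT, was the lowest of the 17 labels. The median relative depth was 0.548 for L5IT and 0.546 for L5PT. Opossum Sox5 UMIs were also uneven among cells, since 46 cells with 5 or more, including 23 L6CT and 7 L5PT, held 35.0% of them. The 102 UMIs of opossum L5PT came from 33 of 115 cells, so the intervals of this gene are too narrow.

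**Figure D3:**
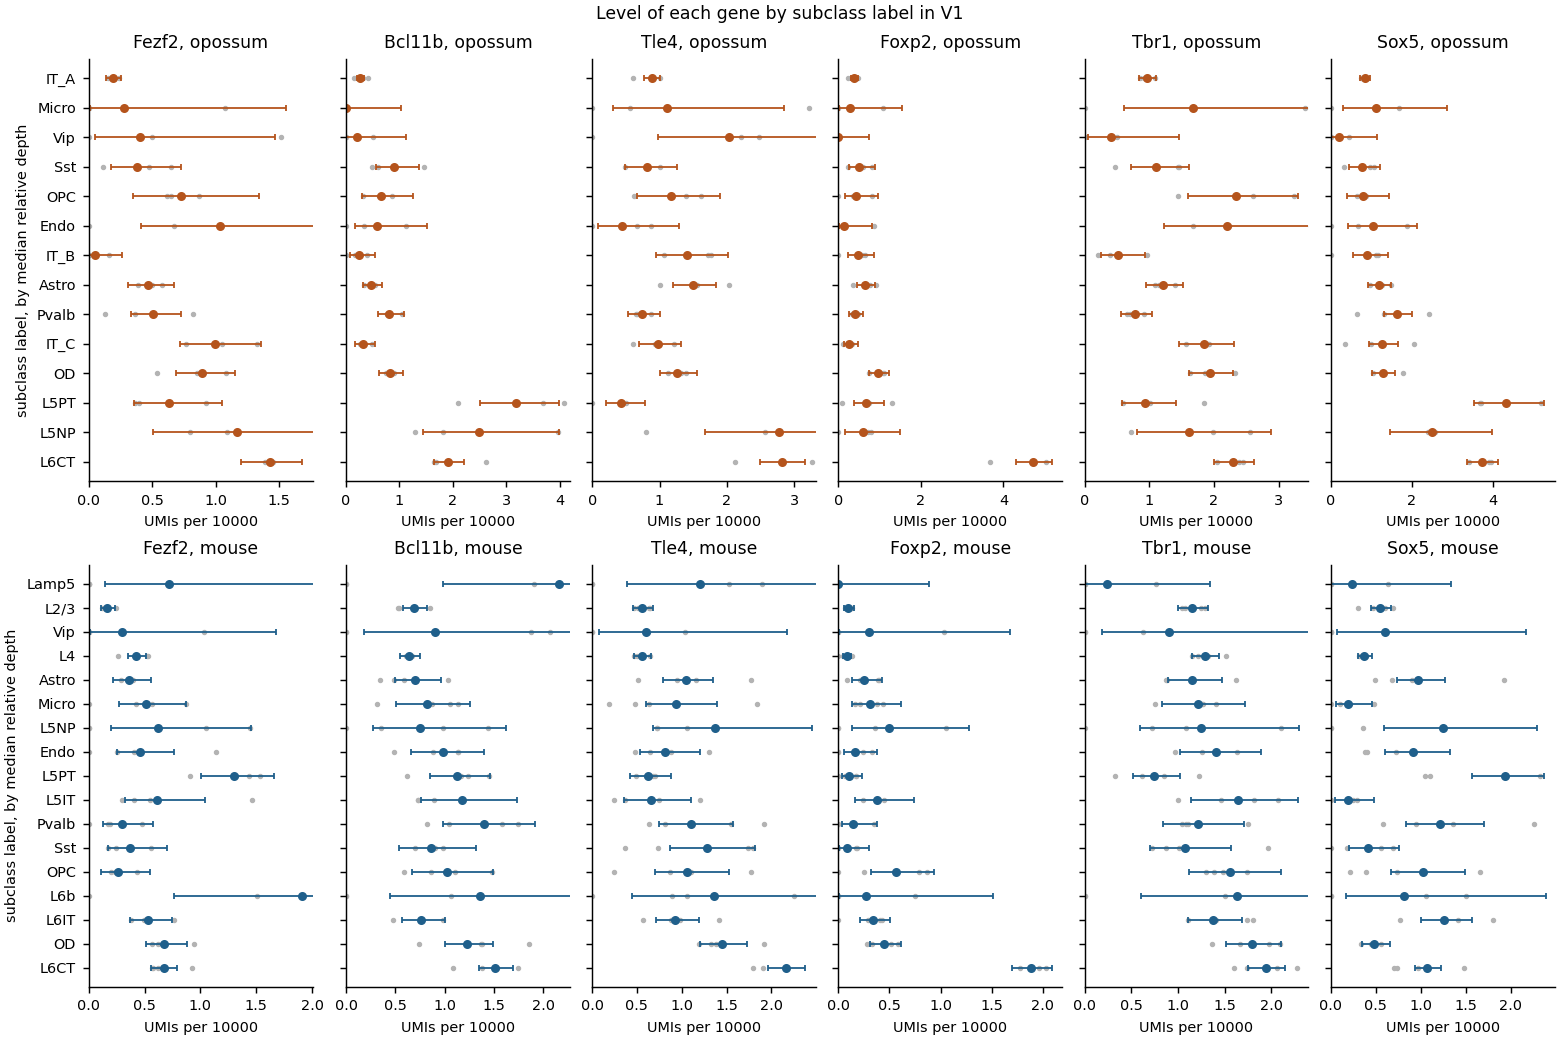
Level of each gene (UMIs per 10000, x axis) by subclass label, ordered by median relative depth, for opossum (top row) and mouse (bottom row). Colored points with bars are the pooled level with its exact 95% Poisson interval and gray points are V1 regions; some intervals, and some region values, of labels with few cells run past the axis, and Foxp2 stands apart in L6CT in both rows, at 4.72 and 1.89.

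**Figure D4:**
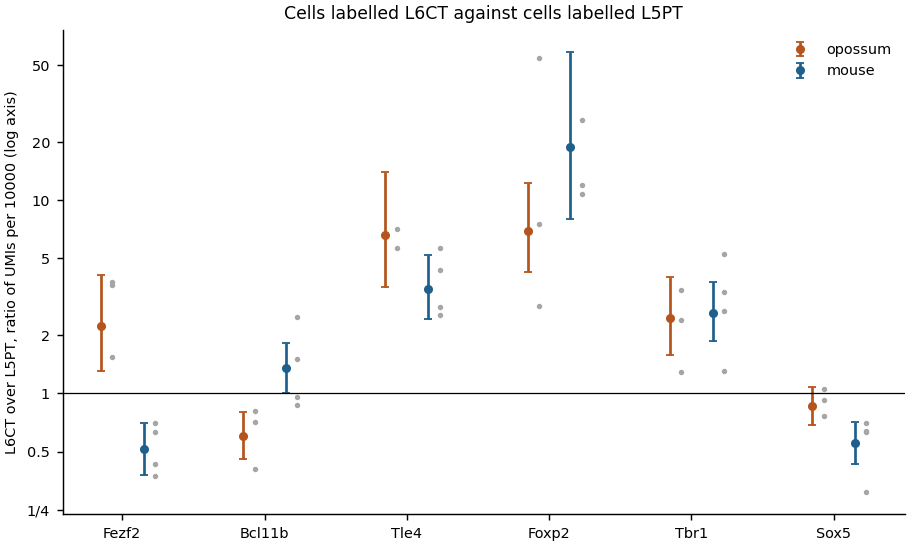
Ratio of the level in L6CT over that in L5PT (log axis) for each gene, with exact 95% intervals (bars) and V1 regions (gray points; a region with no UMI in L5PT has no point). Fezf2 lies above 1 in the opossum, at 2.24, and below 1 in the mouse, at 0.515, while Tle4, Foxp2 and Tbr1 lie above 1 in both.

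Levels of some genes also differed with depth inside a label. L6CT cells were split at their own median depth. Opossum L6CT cells below it had Foxp2 at 5.67 per 10000 and those above it 3.53, a ratio of 1.61 (1.32 to 1.96) with the deeper cells higher in 3 of 3 regions. Mouse L6CT had 2.41 and 1.32, a ratio of 1.83 (1.47 to 2.28) in the same direction in 4 of 4 regions. Tle4 in opossum L6CT had a ratio of 1.44 (1.12 to 1.86), higher below in 3 of 3 regions, and in mouse L6CT 1.09 (0.898 to 1.32). Fezf2 had 1.26 (0.888 to 1.80) in opossum L6CT and 0.790 (0.554 to 1.13) in mouse L6CT, where the deeper cells were lower in 4 of 4 regions, and both intervals hold 1. Opossum Sox5 had 1.28 (1.04 to 1.59), higher below in 2 of 3 regions. In upper IT cells some genes also differed with depth. In IT_A the deeper cells had 2.60 (1.32 to 5.42) times the Fezf2, 1.98 (1.15 to 3.50) times the Bcl11b and 1.58 (1.19 to 2.12) times the Tle4, each in 3 of 3 regions, while the intervals of Foxp2, Tbr1 and Sox5 hold 1, with Sox5 at 0.845. In mouse L2/3 they had 2.12 (1.44 to 3.17) times the Bcl11b and 1.73 (1.13 to 2.66) times the Tle4, each in 4 of 4 regions, and the other 4 intervals hold 1. In mouse L4 all 6 intervals hold 1. Interneurons also differed with depth. In opossum Pvalb cells the deeper ones had 9.83 (2.46 to 85.5) times the Fezf2, from 26 against 2 UMIs. Tbr1 was at 2.86 (1.34 to 6.77) and Sox5 at 2.37 (1.45 to 4.03). The other intervals hold 1, with Tle4 at 0.536. In opossum Sst cells Sox5 was lower below, at 0.239 (0.0572 to 0.760), and the other intervals hold 1. All intervals of mouse Pvalb and Sst hold 1. Such differences were thus not particular to IT cells and L6CT.

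Cells of the nonneuronal class also had more UMIs of several of these genes at depth. From the top to the bottom of 3 depth bands, Foxp2 in opossum nonneuronal cells (166, 263 and 248 cells) was at 0.327, 0.441 and 1.04 per 10000, and in mouse nonneuronal cells (463, 567 and 843 cells) at 0.10, 0.295 and 0.638. Opossum glutamatergic cells had 0.451, 0.516 and 2.52 in these bands, and those of the mouse 0.115, 0.187 and 1.30. In the bottom band Foxp2 was therefore higher in glutamatergic than in nonneuronal cells of both animals, with intervals that did not overlap. Tbr1 was not, at 2.09 against 2.13 in the opossum and 1.90 against 1.85 in the mouse, nor was mouse Bcl11b, at 1.40 against 1.30. Fezf2 in nonneuronal cells was at 0.218, 0.378 and 0.981 in the opossum, near the 0.110, 0.273 and 1.32 of glutamatergic cells. In the mouse, the mid-depth maximum of Fezf2 belonged to glutamatergic cells, at 0.220, 0.794 and 0.522, and not to nonneuronal cells, at 0.200, 0.429 and 0.587. Sox5 did not follow depth in nonneuronal cells, which had 1.31, 0.820 and 1.15 in the opossum against 0.581, 0.805 and 0.571 for the mouse. Slc17a7, as given above, was about as high outside the mouse glutamatergic label as inside it. Whether these UMIs come from the labeled cell, from neighboring cells or from mixed labels was not tested.

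**Figure D5:**
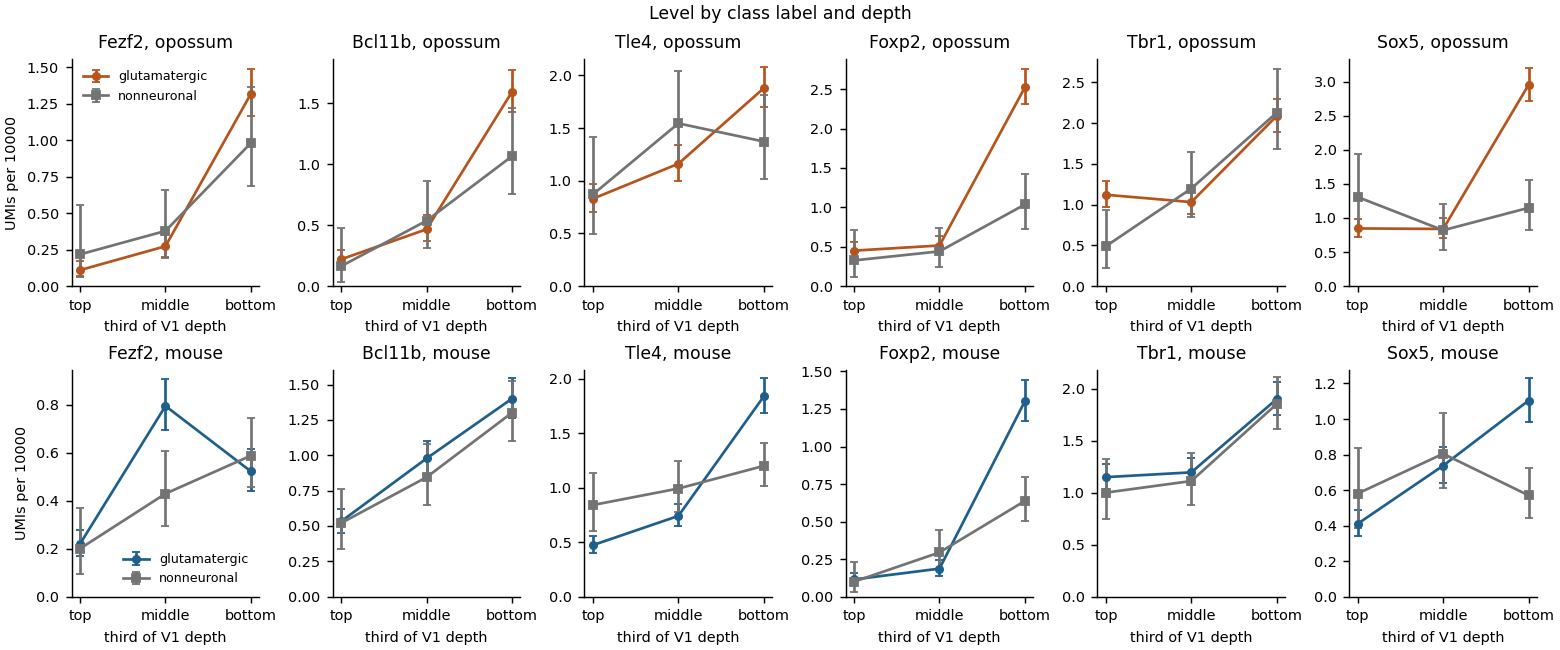
Level of each gene (UMIs per 10000, y axis) in cells of glutamatergic (colored circles) and nonneuronal (gray squares) class label in the top, middle and bottom of 3 equal depth bands, with exact 95% Poisson intervals, for opossum (top row) and mouse (bottom row). The bands separate the classes for Foxp2 in the bottom, at 2.52 against 1.04 and 1.30 against 0.638, and for Tbr1 they separate them only in the top band of the opossum, at 1.12 against 0.490.

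At least 1 UMI of any of the 6 was present in 76.2% of opossum L6CT cells and 62.5% of mouse L6CT cells, and UMIs of 2 or more of the genes in 43.7% and 26.5%. These shares are not thinned. In OD the shares with any of the 6 were 40.7% and 46.9%, at median depths of 1077 and 1367.5 UMIs.

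Related genes, listed from textbook knowledge, were read with the same ratios. Of the paralogs of the 6, 4 of 12 could be measured by label in the opossum and 7 of 12 in the mouse. None reached 1.5-fold higher in deep labels in either animal, beside 7.2% of all opossum genes and 3.55% of all mouse genes. With so few paralogs measured, finding none is close to these shares. At least 1.5-fold lower in deep labels was reached by 9.14% of all opossum genes and 5.08% of all mouse genes. In the opossum 2 of 4 paralogs were lower, the corepressor Tle3 at 0.317 (0.209 to 0.465) and the forkhead gene Foxp1 at 0.453 (0.371 to 0.549), the latter highest in IT_B. In the mouse 2 of 7 were lower, the corepressor Tle1 at 0.591 (0.448 to 0.773) and Sox6 at 0.510 (0.316 to 0.799), a gene that was highest in Sst interneurons. Mouse Foxp1 was at 1.05 (0.953 to 1.16), and Bcl11a, the close relative of Bcl11b, at 0.983 (0.848 to 1.14) in the opossum and 1.28 (1.12 to 1.47) in the mouse, short of 1.5-fold. The median paralog ratio was 0.718 in the opossum and 0.770 in the mouse, beside 1.02 and 1.00 over all genes.

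Genes that oppose or assist the network included several that were lower in deep labels. Of 11 measured in the opossum, 5 were at least 1.5-fold lower in deep labels and 1 was higher, beside 9.14% and 7.2% of all genes. Of 14 in the mouse 5 were lower and none higher, beside 5.08% and 3.55%. Most therefore did not reach 1.5-fold in either direction in the mouse. Cux2, a homeobox gene of upper layers, was at 0.247 (0.202 to 0.299) in the opossum and 0.239 (0.194 to 0.292) in the mouse, and Cux1 at 0.330 and 0.370. Mouse Bhlhe22, a basic helix-loop-helix gene, was at 0.437 (0.333 to 0.567). Opossum Ldb2, a LIM-domain-binding cofactor, was the one that was higher, at 2.83 (2.33 to 3.44), with its top level of 4.92 in L5PT.

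Genes of the subcerebral and corticothalamic program were mostly deep. In the opossum 8 of 11 measured were at least 1.5-fold higher in deep labels and 0 lower, beside 7.2% and 9.14% of all genes. In the mouse 10 of 17 were higher and 0 lower, beside 3.55% and 5.08%. The median ratios were 2.29 and 2.13. Between depth bands, 9 of 12 opossum genes were higher and 1 lower, beside 7.76% and 7.57%. In the mouse these were 11 and 1 of 19, beside 4.43% and 5.42%. Labels came from expression and several listed genes mark them, so ratios by label are not independent of the labels. The list also held genes of L6b and L5NP. Syt6, a synaptotagmin, was at 15.6 (10.7 to 23.6) in the opossum, and Nxph3, a neurexophilin, at 15.3 (10.6 to 22.6), both highest in L6CT. Zfpm2, a zinc finger cofactor, was at 4.60 (4.04 to 5.24) in the opossum and 6.46 (5.28 to 7.95) in the mouse, and Nfia, a nuclear factor I gene, at 4.72 (3.89 to 5.74) and 2.53 (2.15 to 2.99). Rprm, a cell cycle gene used as a marker of mouse L6CT, was at 4.71 in the mouse, highest in L6CT at 4.63 per 10000, but highest in L5PT in the opossum, at 3.18. Ccn2, a matricellular gene of L6b, was at 4.48 in the mouse. Opossum features with the symbols Tle2, Tle5, Eomes, Tbx21, Bhlhe22, Ctbp2, Ski, Parm1, Bcl6, Hs3st4 and Nxph4 were not found by symbol and are not analysed here.

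The genes most like each member over the labels (Pearson's r of log2 levels over 14 opossum and 17 mouse labels, without p-values because labels share libraries and depth) differed between the animals. For opossum Fezf2 they were PCP4L1 (0.880), CAMK2G and CPLX2, for Bcl11b INPP1 (0.862), UTRN and DIRAS1, and for Tle4 PLEKHA1 (0.911), DCC and CAMKMT. For opossum Foxp2 they were NXPH3 (0.814), MAP2K1 and HS2ST1, for Tbr1 CORO1A (0.901), THY1 and PRNP, and for Sox5 RABGAP1 (0.874), CLSTN2 and FYTTD1. For mouse Fezf2 they were Anxa7 (0.770), Ndufc1 and Ift22, for Bcl11b Kars1 (0.747), Ddah1 and Sdha, and for Tle4 Rprm (0.855), Usp46 and Chd3. For mouse Foxp2 they were Prkcb (0.730), Rell1 and Zfpm2, for Tbr1 Nptx1 (0.943), Uchl1 and Vamp4, and for Sox5 Ptpn23 (0.735), Tbca and Klhl15. No gene was among the nearest 3 of the same member in both animals. The named genes are the highest of 4999 opossum and 8153 mouse candidates. How high an r a search of this size gives without any relation was not computed. All 3 genes for mouse Fezf2 were highest in the 26 L6b cells, and all 3 for mouse Bcl11b in the 35 Lamp5 cells. Whether the lists differ beyond counting error was not tested.

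Outside the V1 regions, in 74531 opossum and 110882 mouse cells of the same sections, the genes kept different proportions. Opossum Fezf2 was at 0.594 per 10000 in V1 and 0.250 outside, a ratio of 2.38 (2.13 to 2.64), and Tbr1 had 2.31 (2.15 to 2.47). Mouse Foxp2 had 2.08 (1.90 to 2.28) and mouse Fezf2 1.14 (1.05 to 1.24). Bcl11b was lower in V1 than outside in both animals, at 0.813 (0.745 to 0.887) and 0.790 (0.745 to 0.837), as was Foxp2 in the opossum, at 0.838 (0.777 to 0.902). The cells outside V1 come from many brain areas that the labels do not name, and their median depth was 850 UMIs per opossum cell and 1120 per mouse cell. Before embedding, the authors trimmed the opossum slices at the sides and below, but not the mouse slices. The tissue outside V1 therefore differs between the animals, and these ratios are not matched between them.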

How the data were processed

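With the Stereo-seq Analysis Workflow, the authors aligned reads to GRCm39 (mouse) or to an opossum genome whose gene 3′ ends they had lengthened, and deposited UMI counts per gene and segmented cell without normalization, with positions, V1 regions, filter flags and class and subclass labels. Class and subclass labels came from nearest-neighbor classification against single-nucleus atlases of the same species, which were not used here. Cells of a V1 region that carried the authors' pass flag entered, with a minimum of 50 genes and 100 UMIs, and labels with fewer than 25 cells were left out of orders of labels.

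Levels, ratios, intervals (exact Poisson, exact Clopper-Pearson, and the binomial split of the counts for ratios) and depth were computed with Python 3.11.15, numpy 2.4.6, scipy 1.17.1 and pandas 2.3.3, and plots were drawn with matplotlib 3.10.9. Depth was the position along the smallest rectangle around a region, turned so that L6CT lies below IT_A or L2/3. Genes were called at 1.5-fold with at least 100 UMIs in the cells compared, with no p-value. Likeness used log2(UMIs per 10000 + 0.1) for genes with a symbol and at least 200 UMIs. Thinned values are means over 100 draws of 300 UMIs per cell; 156 opossum and 130 mouse cells were shallower and left out of them. The ratio computation was tested on simulated data.

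The 6 genes, the lists and the rules for naming genes (every member, list genes past 1.5-fold in both ratios, and the 3 genes most like each member) were chosen with earlier results of these data known. The alternatives were other filters, thinning, labels, weights and depth bands, and each region left out. The L6CT over L5PT ratio itself, its alternatives and the comparison with OD in the bottom band were added after seeing the data. Of the mouse features, 21860 carry a symbol other than the GENCODE name of their identifier. A gene that the naming rule selects is not reported here.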

Additional observations from a re-analysis of the deposited data

Results flagged for a closer look

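The L6CT over L5PT ratio of Fezf2 was 2.24 in the opossum and 0.515 in the mouse. It was above 1 in each of the 3 opossum V1 regions and below 1 in each of the 4 mouse V1 regions. Without opossum region 1 it was 3.64. The L6CT over L5PT ratio was added after seeing the data. The difference between the animals was not tested, since each species is 1 animal. The share of all genes with such opposite orders was not computed.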

How the results depend on the processing

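Under the alternatives, 323 of 368 recomputed values stayed within the counting interval or regional spread of their main value. Of the others, 45 moved beyond it and 0 were reversed. A mean relative depth could not count as reversed. Neither could a deep over upper or bottom over top ratio whose main value was short of 1.5-fold. The cause of a move was not tested. With labels of the first round only, deep over upper ratios became larger, to 10.7 for Fezf2, 19.1 for Bcl11b, 3.68 for Tle4 and 6.78 for Sox5 in the opossum, and to 3.33 for Bcl11b, 5.27 for Tle4, 32.5 for Foxp2 and 3.80 for Sox5 in the mouse. L6CT over L5PT with these labels became 17.2 for Foxp2 and 4.21 for Tbr1 in the opossum, and 0.362 for Fezf2, 6.80 for Tle4 and 6.86 for Tbr1 in the mouse. After thinning to 300 UMIs, opossum values were 3.06 for Tle4 (deep over upper), 2.39 for Tbr1 and 2.44 for Sox5 (bottom over top), and the mean relative depth of mouse Bcl11b was 0.597. With raw UMIs pooled, mean relative depths were 0.762 for Foxp2, 0.630 for Tbr1 and 0.673 for Sox5 in the opossum and 0.625 for Bcl11b and 0.589 for Tbr1 in the mouse. With glutamatergic cells only they were 0.577 for opossum Tbr1 and 0.559 for Fezf2, 0.564 for Bcl11b and 0.529 for Tbr1 in the mouse, where the bottom over top ratio became 3.88 for Tle4 and 2.69 for Sox5. Mouse Bcl11b had a mean of 0.603 both with at least 500 UMIs per cell and with the rank of a cell as depth. With 4 depth bands in place of 3, opossum Tle4 had 2.83 and Foxp2 6.74. Leaving out 1 region at a time gave 8.05 to 13.0 for the opossum Foxp2 deep over upper ratio and 2.52 to 3.58 for the mouse Tle4 bottom over top ratio. It gave L6CT over L5PT ratios of 1.73 to 3.64 for opossum Fezf2, the highest without region 1, of 0.508 to 0.863 for opossum Bcl11b, the highest without region 1, and of 3.84 to 23.7 for opossum Foxp2, the lowest without region 1 and the highest without region 2. With at least 300 UMIs per gene, fewer genes were tested and fewer passed 1.5-fold. In the opossum 153 were higher and 250 lower in deep over upper labels and 196 higher and 262 lower in bottom over top bands. In the mouse these counts were 116, 201, 187 and 248. With 100 UMIs they were 493, 626, 589 and 574 for the opossum, and 334, 478, 448 and 548 for the mouse. The numbers tested with 300 UMIs are not given, so these counts do not show whether the shares changed. No paired analysis was possible because each species has 1 sample and no replicate. Depth limits all labels with few cells, such as L5NP and mouse L6b.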
